A study of Homo sapiens with 12 samples.

Results

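The 9 nuclear genes MTIF2, MTIF3, TUFM, TSFM, GFM1, MTRF1, MTRF1L, MRRF and GFM2 encode factors that carry the mitochondrial ribosome through a round of protein synthesis. They were taken by name from the 57353 genes of the count table. All 9 were found, and all 9 were among the 12998 genes that passed a filter on low counts (raw count and CPM both averaging 1 or more across the libraries). Their RNA was measured by RNA-seq in MOLM-13 cells, an established human acute myeloid leukemia (AML) line that carries FLT3-ITD, an activating duplication in the FLT3 receptor kinase. The 12 libraries formed 4 groups of 3 replicates, which the study describes as biological. The groups were vehicle (DMSO) in RPMI, quizartinib in RPMI, vehicle in hBMSC-CM, and quizartinib in hBMSC-CM. Quizartinib (AC220) inhibits FLT3 and was given at 3 nM for 15 hr. The RPMI was the regular serum-containing medium, and hBMSC-CM was RPMI mixed with medium conditioned by HS-5, an immortalized human bone marrow stromal cell line. One cell line was used, and the conditioned medium held what stromal cells secrete but not the stromal cells themselves.

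Mitochondria keep their own ribosomes, which translate the small set of mRNAs made from mitochondrial DNA. These mRNAs encode core subunits of the respiratory chain and of the ATP synthase, while the ribosomal proteins and the factors described here are encoded in the nucleus and imported. MTIF2 and MTIF3 start a round of synthesis, TUFM, TSFM and GFM1 extend the chain, MTRF1L and MTRF1 end it, and MRRF and GFM2 take the ribosome apart for reuse. AML cells are known to lean on mitochondrial respiration.

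Total counts lay between 19966546 and 31546104 per library, and a count of 0 allowed a level of up to 0.0951 to 0.150 CPM, for counting error only. CPM, the count of a gene relative to the library total in the usual RNA-seq unit, was scaled between libraries with TMM factors of 0.956 to 1.04. The 11 AML cell markers were present in all libraries, with MPO the lowest at no more than 5.79 CPM. Of the 11 stromal cell markers, 6 had no count in any library, among them COL3A1, DCN and LUM. The summed stromal marker level was 2.91 to 3.09 CPM for vehicle in RPMI, 10.5 to 12.5 CPM for quizartinib in RPMI, 2.75 to 3.20 CPM for vehicle in hBMSC-CM and 5.89 to 6.65 CPM for quizartinib in hBMSC-CM, carried mostly by TAGLN and COL1A1. This sum was higher with quizartinib, and its part in the results was not tested. Because bulk RNA was sequenced, a change in the share of a gene's RNA in the library cannot be told apart from a change in the amount of all other RNA per cell.

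RefSeq promoter entries on GRCh38.p14 (250 bases before to 50 after the gene start) were found for all 9. The ETS core CCGGAAG, searched on both strands, was present in 6 of 9 (TUFM, GFM1, GFM2, MTRF1, MTRF1L and MTIF2), against 10.3% of all 35116 promoter entries and 17.9% of the 13075 entries of tested genes. The E-box CACGTG (9.72% of the entries of tested genes) and the NRF1 core GCATGCGC (5.06%) were in none of the 9, and CCAAT (35.1%) was in GFM1 and MTRF1L. The 150 bases upstream of the start are printed for 4 members with the ETS core, 3 that fell with quizartinib in both media and 1 that rose. All are written in the direction of transcription, with ETS cores and CCAAT in capitals.
TUFM, chr16:28846349-28846498, minus strand: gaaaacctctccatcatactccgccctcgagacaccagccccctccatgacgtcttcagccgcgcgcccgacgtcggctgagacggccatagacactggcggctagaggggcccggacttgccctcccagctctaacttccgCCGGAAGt
GFM1, chr3:158644377-158644526, plus strand: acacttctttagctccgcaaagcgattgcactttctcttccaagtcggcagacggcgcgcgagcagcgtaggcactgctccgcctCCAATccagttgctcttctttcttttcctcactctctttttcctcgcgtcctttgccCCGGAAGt
GFM2, chr5:74767118-74767267, minus strand: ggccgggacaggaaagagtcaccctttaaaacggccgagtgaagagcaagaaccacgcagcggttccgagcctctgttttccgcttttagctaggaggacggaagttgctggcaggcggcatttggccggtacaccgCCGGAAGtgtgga
MTRF1, chr13:41263577-41263726, minus strand: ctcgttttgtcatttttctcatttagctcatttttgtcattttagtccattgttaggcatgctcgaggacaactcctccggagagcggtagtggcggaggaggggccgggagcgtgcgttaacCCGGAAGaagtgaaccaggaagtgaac
In TUFM and GFM1 the core began 8 bases before the start, on the sense strand, and the base after it was the same. In GFM2 it began 13 bases and in MTRF1 27 bases before the start, also on the sense strand. MTIF3, TSFM and MRRF held none of the 4 motifs in this window. The ETS core was present in members that fell with quizartinib (TUFM, GFM1 and GFM2) and in members that rose (MTRF1 in both media and MTIF2 in RPMI). It was also present in MTRF1L, which was not called. These matches are descriptions of letters, not of binding.

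The members spanned more than 2 orders of magnitude in level only with TSFM included. The TSFM level is uncertain as a measure of its RNA, since most of its exonic bases are shared with another gene. Without TSFM the means ran from 160 CPM per kb for TUFM to 3.98 for GFM1, under 2 orders of magnitude. Per kilobase of merged exon (GENCODE release 44), the mean over the 12 libraries was 160 ± 30.6 CPM per kb for TUFM (SD, n = 12), the mitochondrial EF-Tu that delivers aminoacyl-tRNA to the ribosome. The initiation factors followed, with 34.2 ± 2.39 CPM per kb for MTIF2 and 30.3 ± 3.91 for MTIF3. GFM2 stood at 16.4 ± 1.97, MTRF1 at 9.53 ± 0.860, MTRF1L at 6.28 ± 0.275, MRRF at 4.17 ± 0.358 and GFM1 at 3.98 ± 0.643 CPM per kb. TSFM, the exchange factor that recharges TUFM with GTP, was far below the rest at 0.317 ± 0.0943 CPM per kb. These SDs run over all 4 groups and so include the differences between them. The order was the same in each group, except that with vehicle in hBMSC-CM GFM1 (4.74 ± 0.111 CPM per kb) stood above MRRF (4.28 ± 0.273, SD, n = 3 each). Ranked within each group, the libraries of neighbours did not overlap, with 3 exceptions: MRRF and GFM1 with vehicle in RPMI, and MTIF2 and MTIF3 with quizartinib in RPMI and with quizartinib in hBMSC-CM. With the longest transcript in place of merged exons the GFM1 level was 7.24 CPM per kb, above MRRF at 4.79 and close to MTRF1L at 7.30, so the order of the low members also depended on the length used.

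**Figure D1:**
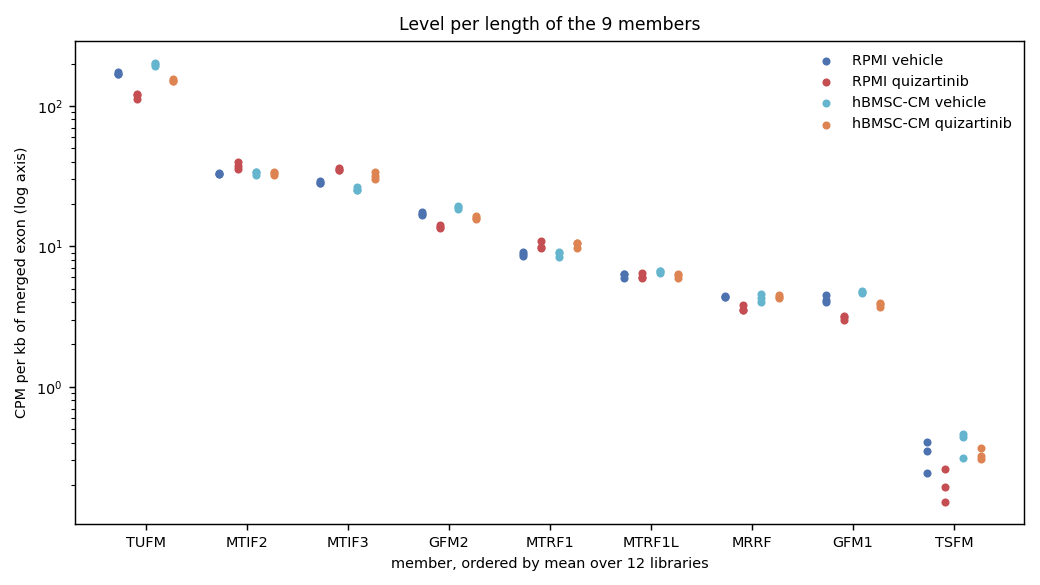
CPM per kilobase of merged exon (log axis) for the 9 members, 1 point per library, colored by group and ordered by the mean over the 12 libraries. TUFM lay at 111 CPM per kb or more and TSFM at 0.152 to 0.462, with the other 7 in between.

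TSFM rested on few reads, between 10 and 45 per library, and its mean of 1.01 CPM was just over the filter. Its group means were 1.07 and 1.29 CPM with vehicle in RPMI and in hBMSC-CM, and 1.07 CPM with quizartinib in hBMSC-CM. With quizartinib in RPMI the mean was 0.648 CPM. TSFM thus passed the filter through the other groups, so its calls against quizartinib in RPMI are not independent of the filter. It lies at chr12:57782761-57808071 on the plus strand of GRCh38, and 67.3% of its exonic bases are shared with a readthrough gene on the same strand (ENSG00000257921, not analysed here). A further overlap with AVIL on the opposite strand covered 9.44% of its exonic bases. How the authors' counting treated reads in such shared exons is not given in the sources used here, so the TSFM level is a value for the reads assigned to it and is uncertain as a measure of its RNA. The strand setting of the counting is not given either. Exons on the opposite strand also covered 37.8% of the exonic bases of MTRF1L (a long noncoding RNA), 14.4% of GFM2, 11.3% of MTIF3 (GTF3A), 5.89% of GFM1 and 1.14% of MRRF (RBM18). For MTIF2 and MTRF1 no exon of another gene was annotated over their own, and TUFM shared only the 58 bases of a microRNA, MIR4721, listed at 0 in every library. Over the 12 libraries the named pseudogenes of the members summed to 26 counts for MRRFP1, 10 for MTRF1LP1, 8 for MTIF2P1, 6 for TUFMP1 and 0 for MTRF1LP2.

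The first comparison addressed what FLT3 inhibition did to these genes in regular medium. With quizartinib in RPMI, 5 of 9 members fell and 3 rose (edgeR quasi-likelihood test, Benjamini-Hochberg adjusted p under 0.05). TUFM, GFM1 and both recycling factors were among those that fell, and both initiation factors were among those that rose. TSFM also counted among the 5, but it passed the filter through the other groups. The changes were modest: the largest fall of an abundant member was that of TUFM, to 0.692-fold, and the largest rise that of MTIF3, to 1.24-fold. Over all genes tested 39.2% were called lower and 40.1% higher, so being called was itself common. The median log2 change of the members was -0.27, against 0.02 over all genes, and the median size of their changes was 0.30, against 0.48. In 7 of 9 members the quizartinib and vehicle libraries did not overlap, against 81.1% of all genes.

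Initiation. MTIF2 (chr2:55236595-55269347, minus strand) places the initiator tRNA on the ribosome. Its level was 111, 111 and 109.7 CPM with vehicle in RPMI and 135, 126 and 121 CPM with quizartinib in RPMI. All drug libraries were above all vehicle libraries, and MTIF2 rose by 0.20 ± 0.04 (log2, SE, adjusted p = 0.000300). In hBMSC-CM it was 108, 113 and 113 CPM with vehicle and 114, 113 and 108 CPM with quizartinib. These groups overlapped fully, with a log2 difference of -0.0018 (95% interval -0.09 to 0.09), and the level in both was near that of vehicle in RPMI. The drug response of MTIF2 differed between the media by -0.20 (log2, adjusted p = 0.0117 for the interaction). Among drug-treated cells, the hBMSC-CM level was below the RPMI level, at -0.19 ± 0.04 (adjusted p = 0.000671), a call lost without the filter on low counts (-0.11, 0.0745).

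MTIF3 (chr13:27435643-27450591, minus strand) binds the small ribosomal subunit before initiation. It was at 45.2, 46.7 and 45.1 CPM with vehicle and 57.9, 56.0 and 55.9 CPM with quizartinib in RPMI. The corresponding levels in hBMSC-CM were 40.5, 42.2 and 40.2 CPM with vehicle and 53.9, 48.2 and 50.8 CPM with quizartinib. In each medium every drug library was above every vehicle library. The rise was 0.31 ± 0.05 in RPMI (adjusted p = 8.85e-06) and 0.32 ± 0.05 in hBMSC-CM (adjusted p = 1.35e-05), with an interaction of 0.01 (95% interval -0.14 to 0.16). MTIF3 was at a lower level in hBMSC-CM, both with quizartinib (-0.15 ± 0.05, adjusted p = 0.0112) and with vehicle (-0.16 ± 0.05, adjusted p = 0.0215). These small differences between media were not stable. Without replicate 2 of quizartinib in hBMSC-CM the first was -0.10 (adjusted p = 0.0947), and without the filter on low counts -0.07 (0.420), or -0.11 (0.0660) with edgeR's filterByExpr. For the second, leaving out replicate 1 or replicate 3 of vehicle in hBMSC-CM or replicate 2 of vehicle in RPMI gave -0.15, -0.15 and -0.14 (adjusted p = 0.0683, 0.0576 and 0.0783), and without the filter it was -0.15 (0.0771). GTF3A, whose exons cover part of MTIF3 on the other strand, moved the opposite way, from 248 ± 3.75 to 84.9 ± 1.30 CPM with quizartinib in RPMI (SD, n = 3, log2 change -1.55, adjusted p = 4.04e-18).

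Elongation. TUFM (chr16:28842411-28846348, minus strand) held 386, 371 and 372 CPM with vehicle and 246, 265 and 271 CPM with quizartinib in RPMI. In hBMSC-CM it held 424, 449 and 439 CPM with vehicle and 333, 332 and 345 CPM with quizartinib. No groups overlapped, in the order quizartinib in RPMI, quizartinib in hBMSC-CM, vehicle in RPMI and vehicle in hBMSC-CM from low to high. TUFM fell by 0.53 ± 0.04 with quizartinib in RPMI (log2, adjusted p = 3.27e-10) and by 0.38 ± 0.04 in hBMSC-CM (adjusted p = 1.49e-07). Among reads on the 9 members, TUFM took 49.5 ± 0.874% with vehicle and 40.6 ± 2.12% with quizartinib in RPMI. In hBMSC-CM its share was 52.6 ± 0.432% with vehicle and 46.5 ± 0.953% with quizartinib (SD, n = 3 each). These are shares of one total, so the members' shares are not independent of each other. In both media the shares of MTIF2, MTIF3, MTRF1 and MTRF1L were higher on average with quizartinib and those of GFM1, GFM2 and TSFM lower.

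GFM1 (chr3:158644527-158695581, plus strand) is EF-G1, which moves the ribosome along the mRNA by 1 codon at a time. It was at 49.1, 53.2 and 47.4 CPM with vehicle and 37.6, 35.0 and 36.7 CPM with quizartinib in RPMI. In hBMSC-CM the values were 56.0, 57.1 and 54.5 CPM with vehicle and 43.7, 46.0 and 46.3 CPM with quizartinib. The 4 groups kept apart from each other in the same order as for TUFM. GFM1 fell by 0.45 ± 0.05 in RPMI (log2, adjusted p = 1.17e-07) and by 0.30 ± 0.05 in hBMSC-CM (adjusted p = 3.67e-05). TSFM, with raw counts of 33, 33 and 17 with vehicle and 16, 24 and 10 with quizartinib in RPMI, passed the test at -0.70 ± 0.26 (adjusted p = 0.0191). Its groups overlapped on the CPM scale (0.784 to 1.29 and 0.488 to 0.834 CPM). The TSFM call was lost without replicate 1 of quizartinib (adjusted p = 0.0587), replicate 3 of quizartinib (0.0778) or replicate 1 of vehicle (0.0540) in RPMI, and with the DESeq2 Wald test (0.0503). In hBMSC-CM, counts of 45, 28 and 21 with vehicle and 28, 27 and 22 with quizartinib gave -0.31 (95% interval -0.79 to 0.18), an interval that includes both no change and the RPMI value. AVIL, on the opposite strand at this locus, moved from 0.898 ± 0.159 to 5.85 ± 0.453 CPM with quizartinib in RPMI (SD, n = 3, adjusted p = 1.12e-12), opposite in direction to TSFM.

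Release. MTRF1L (chr6:152987362-153002709, minus strand) is the factor that reads the standard stop codons of mitochondrial mRNAs. Its level was 27.1, 27.2 and 25.6 CPM with vehicle and 27.9, 25.4 and 25.8 CPM with quizartinib in RPMI, and 28.8, 28.6 and 27.9 CPM with vehicle and 27.3, 26.8 and 25.6 CPM with quizartinib in hBMSC-CM. It was the only member not called in any of the 6 comparisons. The log2 difference between quizartinib and vehicle was -0.01 in RPMI (95% interval -0.13 to 0.10) and -0.10 in hBMSC-CM (95% interval -0.22 to 0.02). MTRF1 (chr13:41216369-41263577, minus strand), its paralog, has been assigned to the nonstandard stop codons of MT-CO1 and MT-ND6. It was at 33.0, 34.8 and 34.1 CPM with vehicle and 42.1, 37.8 and 37.1 CPM with quizartinib in RPMI. In hBMSC-CM it was at 32.03, 34.4 and 34.8 CPM with vehicle and 40.9, 40.8 and 37.5 CPM with quizartinib. In both media the drug libraries were above the vehicle libraries, and the rise was 0.20 ± 0.06 in RPMI (adjusted p = 0.00445) and 0.24 ± 0.06 in hBMSC-CM (adjusted p = 0.00159). Between the media MTRF1 did not differ detectably, with quizartinib (0.03, 95% interval -0.10 to 0.15) or with vehicle (-0.01, 95% interval -0.14 to 0.12).

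Recycling. MRRF (chr9:122264603-122331337, plus strand) is the recycling factor that splits the ribosome after release, together with GFM2. Its level was 48.1, 48.0 and 49.1 CPM with vehicle and 42.4, 39.1 and 38.6 CPM with quizartinib in RPMI. In hBMSC-CM it was 47.5, 44.2 and 50.2 CPM with vehicle and 47.4, 49.3 and 47.8 CPM with quizartinib. The fall in RPMI, -0.27 ± 0.05 (adjusted p = 0.000111), separated all libraries, whereas in hBMSC-CM the groups overlapped at 0.03 (95% interval -0.09 to 0.14). The difference between these responses was 0.30 (adjusted p = 0.00324), the largest interaction among the members past the test. GFM2 (chr5:74721206-74767147, minus strand), or EF-G2, was at 66.0, 69.2 and 67.1 CPM with vehicle and 54.6, 55.9 and 53.7 CPM with quizartinib in RPMI. In hBMSC-CM it was at 73.1, 75.7 and 76.7 CPM with vehicle and 62.7, 65.7 and 62.1 CPM with quizartinib. It fell in both media, by 0.30 ± 0.04 in RPMI (adjusted p = 2.55e-06) and by 0.24 ± 0.04 in hBMSC-CM (adjusted p = 5.20e-05). NSA2, whose exons cover 3.95% of the exonic bases of GFM2 on the other strand, rose with quizartinib in RPMI by 0.20 ± 0.04 (adjusted p = 0.000262), opposite to GFM2. RBM18, which overlaps MRRF, fell by 0.22 ± 0.06 in RPMI (adjusted p = 0.00343) and by 0.25 ± 0.06 in hBMSC-CM (adjusted p = 0.00148), where MRRF was not called.

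**Figure D2:**
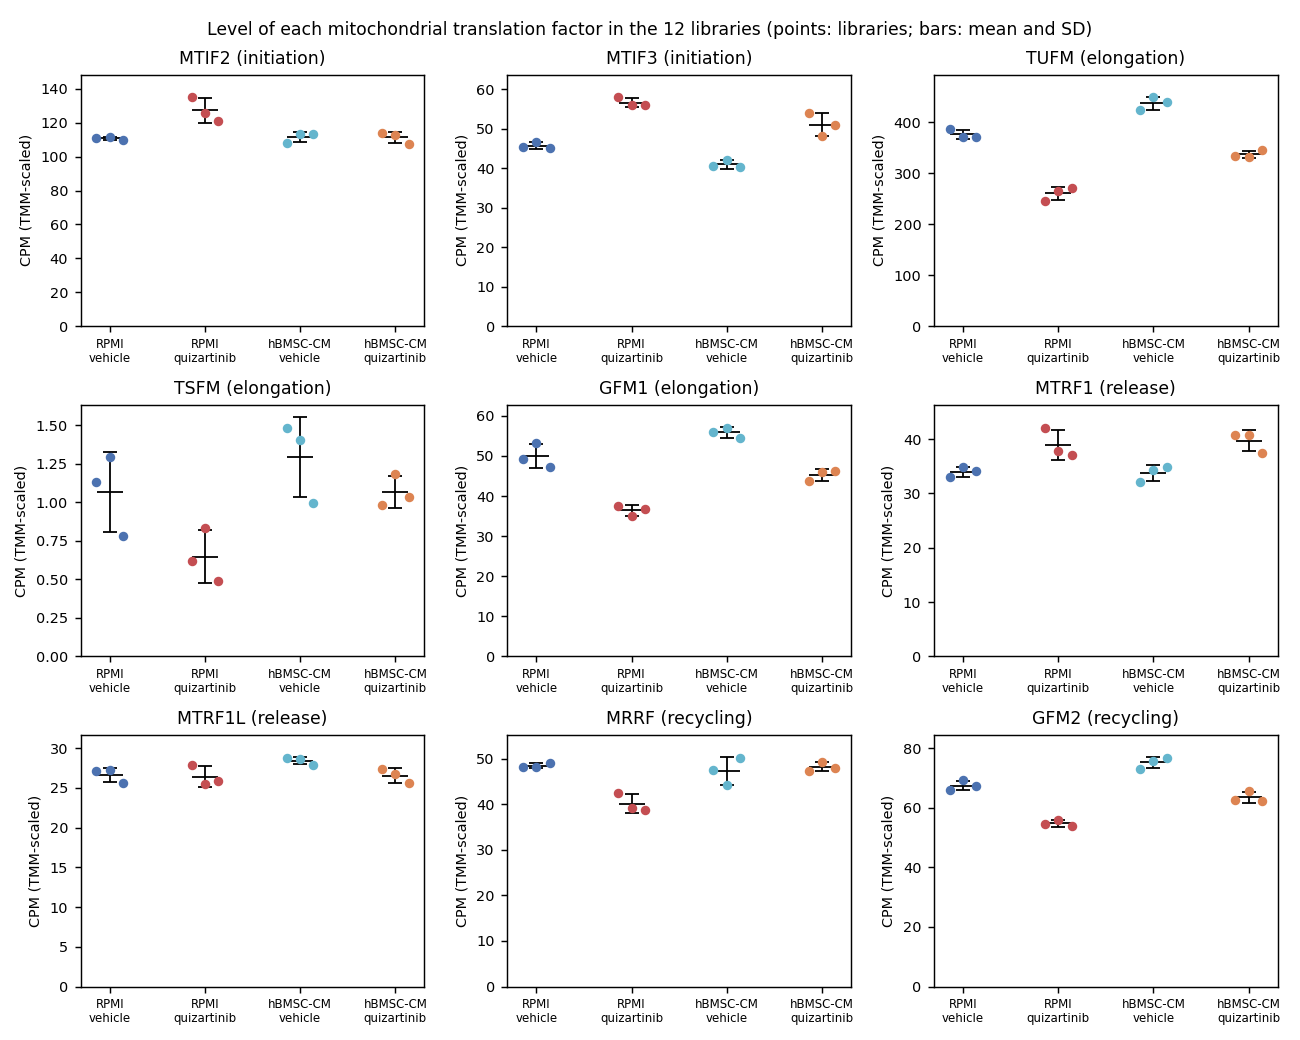
TMM-scaled CPM of each member in the 12 libraries, 3 points per group, with bars for the mean and SD; each axis starts at 0. TUFM, GFM1 and GFM2 were lowest with quizartinib in RPMI and highest with vehicle in hBMSC-CM, while MTIF3 and MTRF1 were higher with quizartinib in both media.

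Scaling moved all members of a comparison together, and it mattered for changes of this size. In RPMI, TMM computed without the filter gave 0.10 for MTIF2 (adjusted p = 0.120) and 0.10 for MTRF1 (adjusted p = 0.244), so their calls were lost. With upper-quartile factors MRRF stood at -0.17 and GFM2 at -0.20 in the same comparison, both still called. The falls of TUFM, GFM1, GFM2 and MRRF and the rise of MTIF3 were called under all 23 alternatives in RPMI.

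The second comparison addressed the drug response in stromal conditioned medium. In hBMSC-CM 3 members fell (TUFM, GFM1 and GFM2), 2 rose (MTIF3 and MTRF1) and 4 were not called, against 33.7% of all genes called lower and 33.4% higher. The quizartinib and vehicle libraries did not overlap for 6 members, including MTRF1L, against 68.4% of all genes. The median log2 change of the members was -0.10, against 0.01 over all genes. With library size alone, 62.8% of all calls were rises, and with upper-quartile factors 60.0%, against 49.8% with TMM. On the first of these scalings GFM1 was at -0.20 and GFM2 at -0.14, both still called, MTIF2 turned to 0.10 (adjusted p = 0.04998) and MRRF was called at 0.13 (adjusted p = 0.0465). The fall of TUFM in hBMSC-CM was 71.0% of that in RPMI on the log2 scale, that of GFM1 66.9% and that of GFM2 81.2%, and the rise of MTIF3 was 103%.

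**Figure D3:**
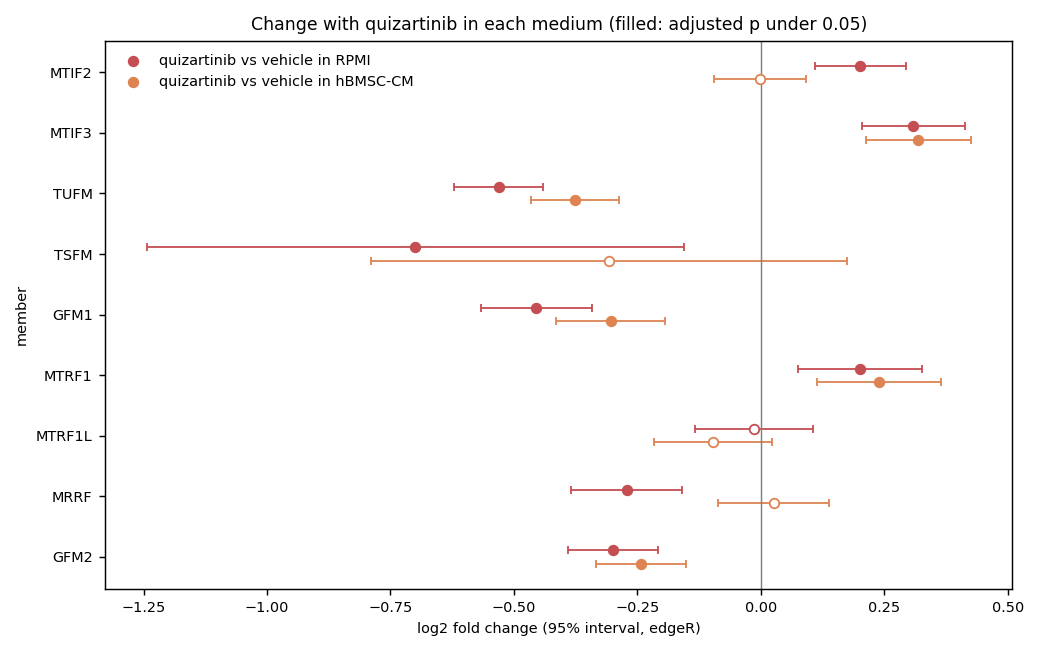
Log2 fold change of each member with quizartinib in RPMI and in hBMSC-CM, with 95% intervals from edgeR; filled points had an adjusted p under 0.05. MTIF3 moved by 0.31 and 0.32, TUFM by -0.53 and -0.38, and MRRF by -0.27 and 0.03.

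The test of the difference between the 2 responses called 3 of 9 members: MRRF (0.30) and TUFM (0.15) with a more positive response in hBMSC-CM, and MTIF2 (-0.20) with a more negative one. Over all genes 26.1% had a more positive and 19.2% a more negative response in hBMSC-CM. The MRRF value was called in all 22 alternatives, with adjusted p from 0.000156 to 0.0130. That of TUFM lay close to the threshold (adjusted p = 0.0446) and was lost in 11 of 22. Without replicate 3 of quizartinib in hBMSC-CM it was 0.12 (adjusted p = 0.129), without replicate 1 of vehicle in hBMSC-CM 0.14 (0.0926), and without replicate 1 or 2 of quizartinib in RPMI 0.11 (0.130) or 0.16 (0.0617). Without replicate 1, 2 or 3 of vehicle in RPMI it was 0.13 (0.113), 0.16 (0.0550) or 0.16 (0.0610). With DESeq2 size factors it was 0.15 (0.0575), with upper-quartile factors 0.13 (0.0720) and with a replicate block 0.16 (0.0554). The interaction of MTIF2 was lost without the filter (-0.13, adjusted p = 0.255). For GFM1 it was 0.15 (95% interval -0.01 to 0.31) and for GFM2 0.06 (95% interval -0.07 to 0.19), neither called, though GFM1 was called without the filter (0.22, adjusted p = 0.0493).

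The third comparison addressed whether drug-treated cells differed between the media. With quizartinib, hBMSC-CM had higher levels of 5 members and lower levels of 2, relative to RPMI, against 35.5% and 34.3% of all genes. The 5 were TUFM (0.37 ± 0.04, adjusted p = 1.71e-07), TSFM (0.67 ± 0.27, 0.0302), GFM1 (0.31 ± 0.05, 3.20e-05), MRRF (0.26 ± 0.05, 0.000213) and GFM2 (0.21 ± 0.04, 0.000240). This comparison and the first share the quizartinib libraries in RPMI, so the 2 are not independent. The filter on low counts kept TSFM through groups other than quizartinib in RPMI, so its call here is not independent of that filter. The 2 lower members were MTIF2 and MTIF3, whose values are given above. Libraries did not overlap for 7 of 9 members, against 71.5% of all genes, and the median log2 difference was 0.21, against 0.00. TSFM lost its call without replicate 3 of quizartinib in hBMSC-CM (0.68, adjusted p = 0.0509), replicate 1 of quizartinib in RPMI (0.62, 0.0827) or replicate 3 of quizartinib in RPMI (0.53, 0.108), and with the DESeq2 Wald test (0.68, 0.0711).

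The medium alone had smaller effects. With vehicle, TUFM (0.22 ± 0.04, adjusted p = 0.000601), GFM1 (0.16 ± 0.05, 0.0217) and GFM2 (0.16 ± 0.04, 0.00858) were higher in hBMSC-CM, and MTIF3 was lower. Over all genes 16.6% were called higher and 15.5% lower. Libraries did not overlap for 5 of 9 members, against 44.6% of all genes. The GFM1 call was lost without replicate 1 or 2 of vehicle in hBMSC-CM (0.16 and 0.15, adjusted p = 0.0518 and 0.0746) and without replicate 1 or 3 of vehicle in RPMI (0.15 and 0.13, adjusted p = 0.0743 and 0.117), and with upper-quartile factors (0.13, 0.0526), whereas those of TUFM and GFM2 were kept in all 23 alternatives.

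A last comparison set quizartinib in hBMSC-CM against vehicle in RPMI. MTIF3 (0.16 ± 0.05, adjusted p = 0.00906) and MTRF1 (0.23 ± 0.06, 0.00253) were higher, TUFM (-0.16 ± 0.04, 0.00293) and GFM1 (-0.14 ± 0.05, 0.0248) were lower, and 5 members were not called. Over all genes 30.6% were called higher and 31.6% lower, and rises made up 49.2% of calls with TMM but 62.1% with library size alone. On that scaling TUFM (-0.07, adjusted p = 0.125) and GFM1 (-0.06, 0.389) lost their calls. Without replicate 1 of quizartinib in hBMSC-CM, MTIF3 was at 0.11 (0.0721) and GFM1 at -0.12 (0.0985), and without replicate 2 of vehicle in RPMI GFM1 was at -0.10 (0.156). Without the filter MTIF3 was at 0.13 (0.0812), and with upper-quartile factors GFM1 was at -0.09 (0.159). Libraries did not overlap for 5 members, against 66.3% of all genes. The difference of MRRF here was -0.01 (95% interval -0.12 to 0.10) and that of MTIF2 0.01 (95% interval -0.08 to 0.10).

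Ratios of factors within a library do not depend on the scaling between libraries, and 5 pairs, chosen with earlier results of these data known, were followed. The p-values below rank the observed arrangement of drug and vehicle libraries among the possible ones, and do not measure the size of a shift. Because of that choice, they give no independent support for a change. Their adjustment covers only these 5 pairs, and other pairs of members were not tested. The log2 ratio of MTRF1 to MTRF1L counts was 0.35 ± 0.06 with vehicle and 0.56 ± 0.04 with quizartinib in RPMI (SD, n = 3 each). In hBMSC-CM it was 0.25 ± 0.09 with vehicle and 0.58 ± 0.03 with quizartinib. In each medium all drug libraries lay above all vehicle libraries, and the mean shift over the media was 0.27. The log2 ratio of MTIF3 to MTIF2 rose from -1.28 ± 0.02 to -1.17 ± 0.05 in RPMI and from -1.45 ± 0.04 to -1.13 ± 0.08 in hBMSC-CM, again with no overlap, by 0.21 on average. An exact two-sided permutation test that exchanged drug and vehicle within each medium (400 arrangements) gave p = 0.005 for each of these ratios, the smallest it can give, and 0.00625 after adjustment over the 5 ratios. GFM1 relative to GFM2 went from -0.44 ± 0.06 to -0.59 ± 0.08 in RPMI and from -0.43 ± 0.06 to -0.49 ± 0.05 in hBMSC-CM. Its mean shift was -0.10 (exact permutation p = 0.02, adjusted 0.02), and in hBMSC-CM the libraries overlapped. The log2 ratio of TUFM to MTIF2 fell from 1.77 ± 0.03 to 1.03 ± 0.15 in RPMI and from 1.97 ± 0.02 to 1.60 ± 0.07 in hBMSC-CM, with a mean shift of -0.55. That of TUFM to MTRF1 fell from 3.47 ± 0.07 to 2.74 ± 0.17 in RPMI and from 3.70 ± 0.04 to 3.09 ± 0.10 in hBMSC-CM, with a mean shift of -0.67. For both of these ratios drug and vehicle libraries did not overlap in either medium, and the same test gave an exact permutation p of 0.005 (adjusted 0.00625).

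**Figure D4:**
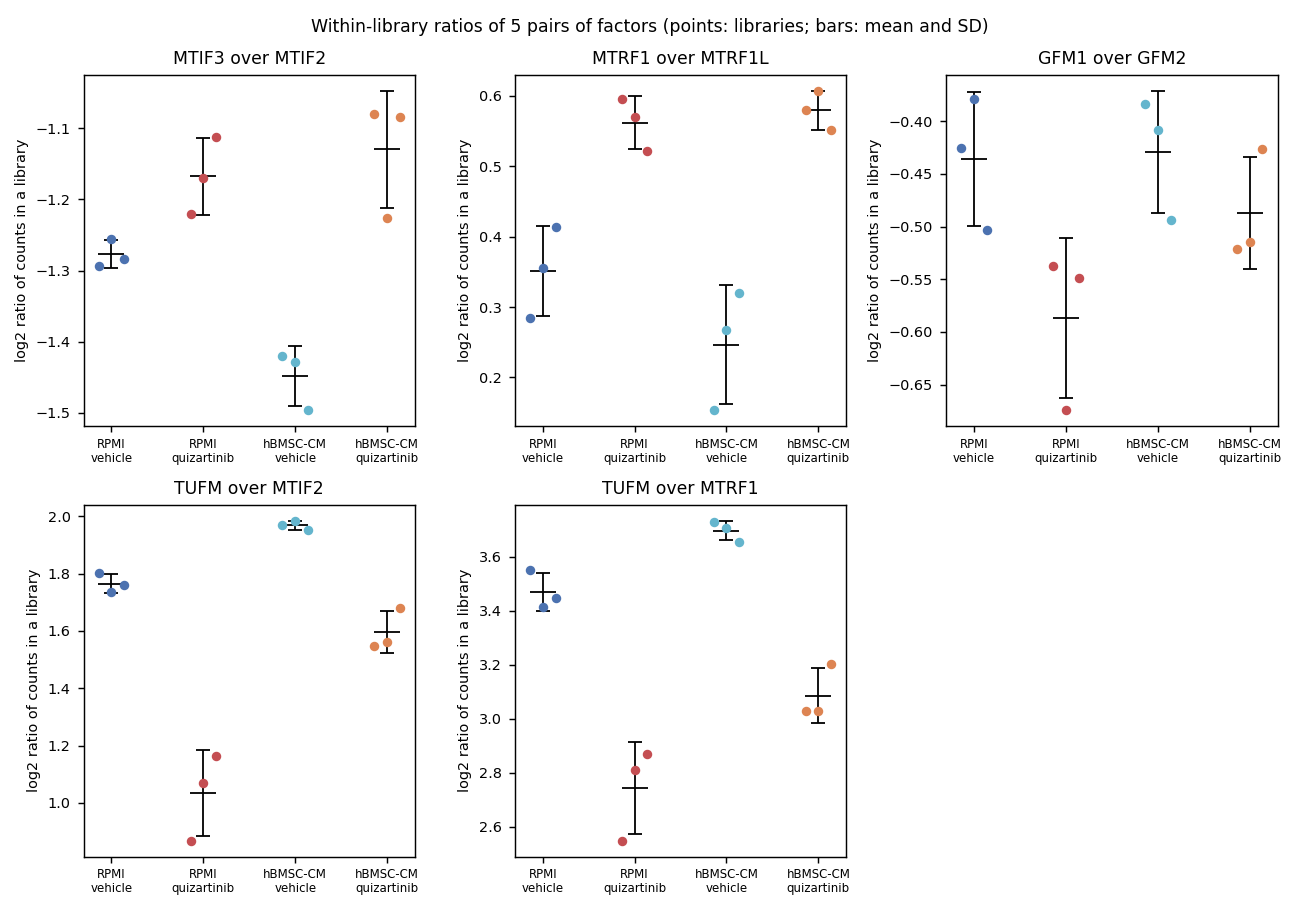
Log2 ratio of raw counts within each library for MTIF3 over MTIF2, MTRF1 over MTRF1L, GFM1 over GFM2, TUFM over MTIF2 and TUFM over MTRF1, with bars for the mean and SD of 3 libraries; the axes do not start at 0. The MTRF1 to MTRF1L ratio was 0.29 to 0.41 with vehicle and 0.52 to 0.59 with quizartinib in RPMI.

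The members were set beside other genes of mitochondrial translation, from lists chosen with earlier results of these data known. Among all genes tested, 39.2% were called lower and 40.1% higher with quizartinib in RPMI. Of 11 tested further factors, 9 fell and 1 rose in that comparison, with a median log2 change of -0.35. Among them GUF1, a GTPase related to bacterial LepA, fell by 0.71 ± 0.04 (adjusted p = 3.81e-12). SLIRP, which stabilizes mitochondrial mRNAs with LRPPRC, fell by 1.53 ± 0.06 (adjusted p = 1.04e-15), and COA3, a cytochrome oxidase assembly factor, fell by 0.76 ± 0.07 (adjusted p = 9.21e-10). MRPL58, a peptidyl-tRNA hydrolase built into the large subunit, fell by 0.54 ± 0.06 (adjusted p = 9.15e-08). MTFMT, which formylates the initiator tRNA that MTIF2 binds, fell by 0.49 ± 0.07 (adjusted p = 4.31e-06), while MTIF2 itself rose. OXA1L, the insertase that takes up newly made chains, rose by 0.18 ± 0.04 (adjusted p = 0.000556). In the same comparison 65 of 80 mitochondrial ribosomal proteins fell and 5 rose (median -0.49), among them MRPL17 (-1.88 ± 0.07, adjusted p = 2.65e-16) and MRPL24 (-1.74 ± 0.06, 7.66e-17) on one side and MRPS6 (0.64 ± 0.08, 2.20e-07) on the other. Of 27 ribosome assembly factors 21 fell and 4 rose (median -0.55), led by the rRNA methyltransferase MRM1 (-2.67 ± 0.08, adjusted p = 3.44e-17). Of 22 genes of mitochondrial tRNA charging, which are aminoacyl-tRNA synthetases and the amidotransferase subunits QRSL1, GATB and GATC, 15 fell and 2 rose (median -0.38). Of 12 genes of mitochondrial transcription and biogenesis 8 fell and 1 rose (median -0.62), and of 8 cytosolic elongation and termination factors 4 fell and 2 rose (median -0.58). The 9 members, with 5 that fell and 3 that rose, had a median of smaller size (-0.27) than each of these lists, which is given as a description without a test.

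In hBMSC-CM the drug lowered 7 and raised 2 of the 11 further factors, and lowered 55 and raised 4 of the 80 ribosomal proteins. The shares of all genes in this comparison were 33.7% lower and 33.4% higher. Among drug-treated cells, 35.5% of all genes were called higher in hBMSC-CM than in RPMI and 34.3% lower. With quizartinib, hBMSC-CM had higher levels of 8 of 11 further factors and 53 of 80 ribosomal proteins, and lower levels of 1 and 3. SLIRP was higher there by 0.98 ± 0.06 (adjusted p = 7.39e-12) and MRPL17 by 1.44 ± 0.07 (adjusted p = 8.94e-14). Also higher were 19 of 27 assembly factors and 12 of 22 tRNA charging genes, with 2 and 3 lower.

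**Figure D5:**
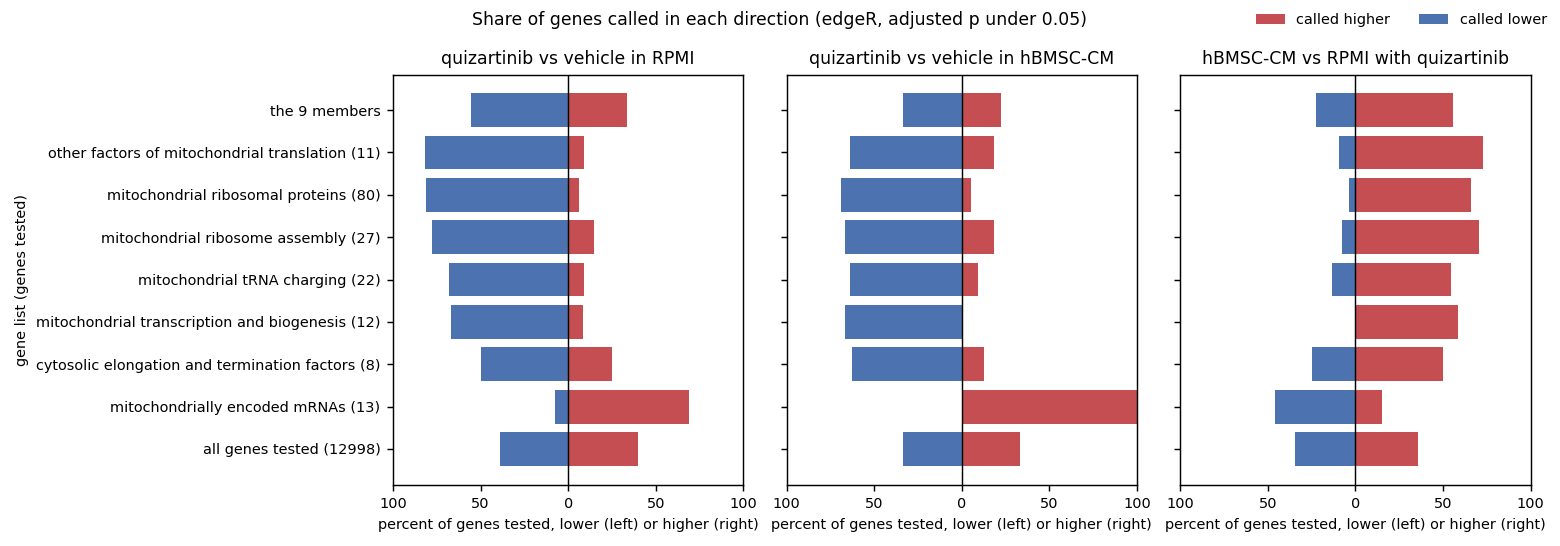
Percent of tested genes called lower (left, blue) or higher (right, red) in 3 comparisons, for the 9 members, 7 other lists and all genes tested. In RPMI 65 of 80 mitochondrial ribosomal proteins fell with quizartinib, against 5 of 9 members, while 9 of 13 mitochondrially encoded mRNAs rose.

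With quizartinib, most of the mRNAs that these factors translate rose, unlike TUFM, GFM1 and GFM2. MTIF3 and MTRF1 also rose in both media, and MTIF2 in RPMI. Among all genes tested, 40.1% were called higher and 39.2% lower in RPMI, and 33.4% and 33.7% in hBMSC-CM. Of the 13 mitochondrially encoded mRNAs, 9 rose and 1 fell with quizartinib in RPMI and 13 rose in hBMSC-CM, as far as poly-A-selected libraries capture them. Their summed level was 6865 to 7888 CPM with vehicle and 9505 to 10125 CPM with quizartinib in RPMI, and 4667 to 6187 CPM and 6627 to 8770 CPM in hBMSC-CM, where replicate 1 of vehicle was the highest and replicate 1 of quizartinib the lowest of its group. Among the targets assigned to MTRF1, MT-CO1 rose by 0.42 ± 0.10 in RPMI and 0.60 ± 0.10 in hBMSC-CM (adjusted p = 0.000528 and 1.93e-05). MT-ND6, the other target, fell by 0.77 ± 0.20 in RPMI (adjusted p = 0.00158) and rose by 1.12 ± 0.21 in hBMSC-CM (adjusted p = 9.09e-05). The rises in hBMSC-CM started from lower levels. With vehicle, all 13 mRNAs were called lower in hBMSC-CM than in RPMI (median log2 difference -0.58), against 15.5% of all genes. MT-ND6 was at -1.13 ± 0.21 there (adjusted p = 0.000330). With quizartinib, 2 of the 13 were called higher in hBMSC-CM than in RPMI and 6 lower, against 35.5% and 34.3% of all genes. For quizartinib in hBMSC-CM against vehicle in RPMI, MT-ND6 was at -0.01 (adjusted p = 0.967), and 2 of the 13 were called, both higher.

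Likeness between genes was taken as the root mean square difference between their log2 CPM values over the 12 libraries, after centring each gene on its own mean, among 9288 tested genes of mean CPM at least 10. The genes most like TUFM were FOXK2 (0.0441) and MRGBP (0.0509), and those most like GFM1 were CEBPG (0.0333) and RTL10 (0.0458). For GFM2 they were SPART (0.0417) and PCMT1 (0.0430), and for MRRF ETNK1 (0.0421) and ATG16L1 (0.0475). MTIF2 was nearest to MAT2B (0.0340) and STAG2 (0.0353), and MTIF3 to LIMS1 (0.0393) and HSD17B12 (0.0429). Of the release factors, MTRF1 was close to OSBPL8 (0.0406), and MTRF1L was nearest to ACP1 (0.0368) and TOR1AIP2 (0.0379). TSFM, with its few reads, had no close match (PRKCA, 0.201, and CCDC47, 0.204). Within the set, TUFM and GFM1 were each other's nearest member (0.0808), GFM2 was nearest to GFM1 (0.0813), and MTIF2 and MTRF1 were nearest to each other (0.1004).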

How the data were processed

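RNA-seq libraries of MOLM-13 cells were grouped by the labels (4 groups, 3 replicates each). The authors trimmed adapters with BBDuk, aligned reads to hg38 with STAR 2.6.0a, added counts of identifiers sharing a name, and deposited raw counts per gene. Their strand setting and treatment of overlapping genes are not given in the sources used here.

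Genes with mean count and mean CPM of at least 1 were kept, TMM-scaled, and fitted by the quasi-likelihood method of edgeR 4.0.16 (R 4.3.3) in 1 model with 4 group means. The 6 contrasts used two-sided p-values adjusted by Benjamini-Hochberg over all 12998 genes, with a threshold of 0.05. Errors of log2 changes are the size of the change divided by the root of the F value. The tests were checked on simulated counts in which few genes changed, in 1 group and equally up and down. In the data a far larger share of genes was called, so that check does not show how the scaling or the tests perform here.

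The members, lists, ratio pairs and alternatives were chosen with earlier results of these data known. All 9 members are named. From each list, called genes of mean CPM at least 10 with the 2 largest rises and falls were eligible in 2 comparisons, as were overlapping genes and the 2 nearest genes of each member. Not every gene that this rule gave is reported here. GUF1, MRPL58, MTFMT, MT-CO1 and pseudogenes were named after their values were seen. Same-numbered replicates did not deviate together (18 pairs, correlation -0.227 to 0.0979), so the numbers were not used to pair samples. All 12 pairs of libraries within groups differed beyond sampling noise (chi-square per gene 2.66 to 10.5). Positions and exon lengths are from GENCODE release 44 on GRCh38, another release than the authors used, and promoters from RefSeq. Alternatives used DESeq2 1.42.0 and limma 3.58.1 as well.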

Additional observations from a re-analysis of the deposited data

Results flagged for a closer look

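The drug response of 3 members differed between the media by the test of the difference itself (edgeR, adjusted p under 0.05). For MRRF, quizartinib minus vehicle was more positive in hBMSC-CM than in RPMI by 0.30 (log2, adjusted p = 0.00324). For TUFM the difference was 0.15 (adjusted p = 0.0446), which did not hold in 11 of 22 alternatives. For MTIF2 it was -0.20 (adjusted p = 0.0117), with a rise in RPMI and overlapping libraries in hBMSC-CM. Groups of 3 libraries were too small to test single libraries as outliers.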

How the results depend on the processing

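Of 1207 values of the members under another setting, 1 turned with a call (MTIF2 with quizartinib in hBMSC-CM, 0.10 with library size only) and 52 changed sign with no call on either side, at a size of at most 0.09 (log2). The cause of the changes below was not tested. With library size only and with upper-quartile factors the median log2 change of all genes with quizartinib in RPMI was 0.11 and 0.13, against 0.02. With library size only, members called higher with quizartinib in hBMSC-CM went from 2 to 4, and members lower with quizartinib in hBMSC-CM against vehicle in RPMI from 2 to 0. With upper-quartile factors the latter was 1. Members with a more positive interaction went from 2 to 1 with DESeq2 size factors, upper-quartile factors, the replicate block and the 0.01 threshold. Without the filter (30572 genes), members higher went from 3 to 1 with quizartinib in RPMI and from 2 to 1 for quizartinib in hBMSC-CM against vehicle in RPMI. Members lower then went to 0 for hBMSC-CM against RPMI with quizartinib (from 2), with vehicle (from 1) and in the interaction (from 1). At a threshold of 0.01 the 3 last counts were 1, 0 and 0, members lower with quizartinib in hBMSC-CM against vehicle in RPMI were 1, and all genes called for hBMSC-CM against RPMI with vehicle fell from 4174 to 2692. With filterByExpr, members lower in hBMSC-CM with quizartinib were 1.

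Without 1 library at a time, members lower were 1 to 2 for hBMSC-CM against RPMI with quizartinib, 0 to 1 for the same with vehicle, and 1 to 2 for quizartinib in hBMSC-CM against vehicle in RPMI, where members higher were also 1 to 2. Members with a more positive interaction were 1 to 2. Each group left with 2 libraries shared the estimate of the spread with the other groups. The replicate block called 5679 genes in the interaction, against 5881. The replicate numbers did not pair the samples, and no library correlated best with its own number (0 of 12). Per length of the longest transcript, levels were 45.5 CPM per kb for MTIF2, 43.97 for MTIF3, 21.4 for GFM2, 16.8 for MTRF1, 7.30 for MTRF1L, 4.79 for MRRF and 7.24 for GFM1. Depth limits TSFM, at 10 to 45 counts per library, which passed the filter and had a value in only 18 or 19 of the 22 or 23 alternatives of each comparison.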
